A study of Mus musculus with 8 samples.

Results

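The mouse Toll-like receptor genes Tlr1 to Tlr9 and Tlr13 were followed in RNA-Seq libraries of macrophages grown from bone marrow (BMDMs). They were chosen by gene name, when earlier results of these data were already known, and make up 10 of the 54532 genes in each count file. All 10 carried enough reads to be tested. Tlr11 and Tlr12, the remaining mouse receptor genes of the family, were also looked up.

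The 8 libraries formed 4 groups of 2. The wild-type (WT) group held BMDMs of WT mice, and the Trex1-KO group held BMDMs of Trex1-/- mice, which lack the DNA exonuclease TREX1. Both were given the vehicle DMSO. The remaining groups held Trex1-/- BMDMs given a STING antagonist, H151 (Trex1-KO+H151) or SN-011 (Trex1-KO+SN-011). All cells came from mice of the C57BL/6J background aged 6 to 8 weeks, were grown for 7 days in medium conditioned by L929 cells, and were treated for 12 h. The labels give 500 nM for H151 and no dose for SN-011, for which the methods name the same concentration. The knockout is germline, so it was not restricted to macrophages. No WT cells received an antagonist, and the labels do not say which animal or culture a replicate number stands for, so p-values measure only the spread between these samples.

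Toll-like receptors are membrane proteins of innate immune cells that sense microbial molecules and, for several of them, nucleic acids. TLR2 pairs with TLR1 or TLR6 at the cell surface to bind lipopeptides, TLR4 binds lipopolysaccharide with MD-2 and CD14, and TLR5 binds flagellin. TLR3, TLR7, TLR8, TLR9 and TLR13 sit in endosomes and bind RNA or, in the case of TLR9, DNA with CpG motifs. The adaptors MyD88 and TRIF (encoded by Ticam1) link the receptors to NF-κB and to interferon regulatory factors. Loss of TREX1 leaves cytosolic DNA that activates cGAS and STING, a separate DNA-sensing route whose output includes type I interferon.

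The sequences before annotated starts of the receptor genes were searched because several receptors moved together. RefSeq windows (build GRCm38.p6), from 250 bases before to 50 bases after a transcription start, were at hand for 8 of the 10 genes, in 10 windows. Tlr4 and Tlr7 had no entry. Each window was searched on both strands for a core of the interferon-stimulated response element (GAAANNGAAA, reading TTTCNNTTTC on the other strand) and for a core of the gamma-activated site (TTCNNNGAA). The first was present in 3.44% and the second in 8.30% of all 32851 windows. The 250 bases before the start lay wholly outside the gene, as GENCODE draws it, in 3 of the 10 windows (Tlr5, Tlr8 and Tlr9) and overlapped the gene's own exons in 6, so several of these starts lie inside the gene and their windows are not its outermost promoter. The stretches of Tlr2 and Tlr3 share 159 and 178 of their 250 bases with exons and are not printed. Below are the stretch of Tlr9, a receptor that was lower with both antagonists, and that of the Tlr6 window with the first core, which lies wholly within the gene between exons. Both read 5′ to 3′ on the gene's strand, with matches in capitals.
Tlr9, chr9:106222348-106222597, plus strand: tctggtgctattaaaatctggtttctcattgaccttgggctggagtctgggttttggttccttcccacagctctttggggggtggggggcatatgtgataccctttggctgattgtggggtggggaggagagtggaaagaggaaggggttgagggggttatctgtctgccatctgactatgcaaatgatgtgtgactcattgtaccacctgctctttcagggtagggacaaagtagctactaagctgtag
Tlr6, chr5:64959167-64959416, minus strand: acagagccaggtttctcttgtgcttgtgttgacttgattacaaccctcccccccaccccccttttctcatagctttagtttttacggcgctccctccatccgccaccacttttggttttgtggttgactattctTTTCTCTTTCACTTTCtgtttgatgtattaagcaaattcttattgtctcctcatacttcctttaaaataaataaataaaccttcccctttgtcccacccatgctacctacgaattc
The Tlr6 window held overlapping matches to the interferon-stimulated core, beginning 116 and 110 bases before the start. The gamma-activated core occurred once in the windows of Tlr1 and Tlr8 and 2 times in the second Tlr6 window. The windows of Tlr2, Tlr3, Tlr5, Tlr9 and Tlr13 held neither word, which says only that these letters were not in those windows.

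Library totals ran from 11845470 to 17284863 counts. Levels are given as CPM, counts scaled to a common library size after TMM normalization, and 1 count was worth 0.0582 to 0.0849 CPM. The knockout could not be checked, since Trex1 had 0 counts in all 8 libraries, WT included. Its exons lie within those of Atrip, and how reads that fit both genes were counted is not stated. Atrip had 192 and 257 counts in WT and 639 to 1067 counts in the 6 Trex1-/- libraries. The 7 macrophage markers (Adgre1, Csf1r, Cd68, Itgam, Mertk, Fcgr1 and Lyz2) summed to 29637 to 31878 CPM in every group, although single markers differed. Adgre1, Cd68 and Fcgr1 were called higher in Trex1-KO, by 0.19, 0.44 and 1.14 on the log2 scale (Adgre1 in 7 of 12 alternatives), and Fcgr1 was called lower with H151 (-0.50) and with SN-011 (-0.49, lost without SN-011 replicate 1). Markers of other marrow cells differed between the genotypes. The 7 neutrophil markers summed to 6.91 to 8.17 CPM in WT and 46.9 to 76.8 CPM in the 6 Trex1-/- libraries, with all 4 that could be tested higher in Trex1-KO, while Ly6g, which defines the lineage, had 0 to 3 counts. Of those 4, Camp and Ltf lie 0.788 and 1.96 Mb from Trex1, and S100a8 and S100a9, on chromosome 3, were 2.39 and 2.89 higher on the log2 scale. The 3 monocyte markers summed to 17.5 to 21.1 CPM in WT and 66.8 to 80.1 CPM in the Trex1-/- libraries, and Ly6c2 and Ccr2 were higher. The 6 stromal and endothelial markers summed to 2083 to 2279 CPM in WT and 870 to 1236 CPM in the Trex1-/- libraries, with 4 lower and Cdh5 higher. The 5 conventional dendritic cell markers summed to 1.63 to 2.65 CPM in WT and 2.85 to 3.62 CPM in the Trex1-/- libraries, and of the 3 tested Xcr1 and Clec9a were higher in Trex1-KO, while Zbtb46 had a log2 fold change of -1.32 and was not called (FDR = 0.0951). The 5 B cell markers stayed at or under 5.18 CPM, 5 plasmacytoid dendritic cell markers at or under 1.84 CPM and 3 T and NK cell markers at or under 0.170 CPM in every library. With either antagonist edgeR's quasi-likelihood test and DESeq2 called 0 neutrophil, monocyte, conventional dendritic cell or stromal markers, and edgeR's exact test called 1, a conventional dendritic cell marker lower with SN-011. Of these 16 tested markers 6 had an unadjusted p under 0.05 with H151 and 3 with SN-011. The part of these markers in the receptor results was not tested, and in bulk RNA fewer cells of a type and less RNA per cell cannot be told apart.

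Levels of different receptors were compared only per kilobase of exon (CPM per kb). In WT BMDMs the highest was Tlr8 at 93.0 ± 2.73 CPM per kb (mean ± SD, n = 2), followed by Tlr2 at 70.4 ± 13.5, Tlr7 at 65.0 ± 1.15 and Tlr13 at 48.0 ± 0.966. Tlr1 followed at 27.1 ± 4.53, Tlr4 at 21.3 ± 0.241, Tlr9 at 14.5 ± 0.360 and Tlr6 at 7.87 ± 0.0366. Tlr3 at 3.36 ± 0.129 and Tlr5 at 2.44 ± 0.712 were the lowest of the 10. Only Tlr2 and Tlr7 overlapped among neighbouring receptors in this order. In Trex1-KO the libraries of Tlr2, Tlr7 and Tlr13 overlapped from neighbour to neighbour, at 84.2 ± 6.42, 80.3 ± 4.13 and 72.8 ± 7.56 CPM per kb. With either antagonist Tlr2 stood below Tlr13 and Tlr7, at 54.6 ± 0.549 CPM per kb with H151 and 57.7 ± 2.94 with SN-011. The other 7 receptors kept the same order in all 4 groups. Tlr11 had 0 to 8 counts and Tlr12 1 to 8 counts per library, too few to test.

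**Figure D1:**
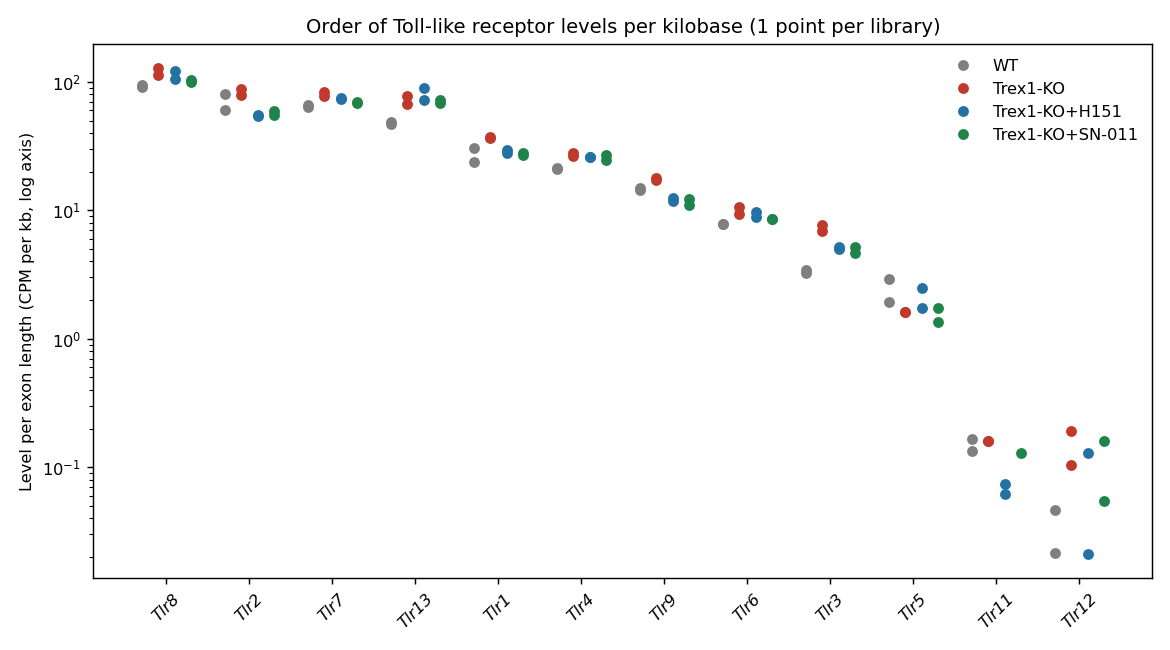
Level of each Toll-like receptor gene per kilobase of exon (CPM per kb, log axis), 1 point per library, with genes ordered by their WT mean and groups by colour. Tlr8 is highest in each group, Tlr3 and Tlr5 are the lowest of the tested receptors, and Tlr11 and Tlr12 lie near zero (1 SN-011 library with 0 counts of Tlr11 is not drawn).

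The first comparison asked which receptors differ in BMDMs that lack TREX1. Trex1-KO BMDMs had 8 of the 10 receptor genes called higher and 0 called lower than WT BMDMs (edgeR quasi-likelihood test, FDR 0.05), where 9.27% of the 14591 tested genes were called higher and 16.4% were called in either direction. The median log2 fold change was 0.34 over the 10 receptors and -0.00 over all tested genes. Tlr3 was up 2.18-fold, Tlr13 1.51-fold, and the other 6 called receptors 1.20-fold to 1.35-fold. The count was 5 without Trex1-KO replicate 1 and 6 to 9 under the other alternatives. Tlr1, Tlr3, Tlr4, Tlr7 and Tlr13 were called under each of the 12 alternatives run.

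**Figure D2:**
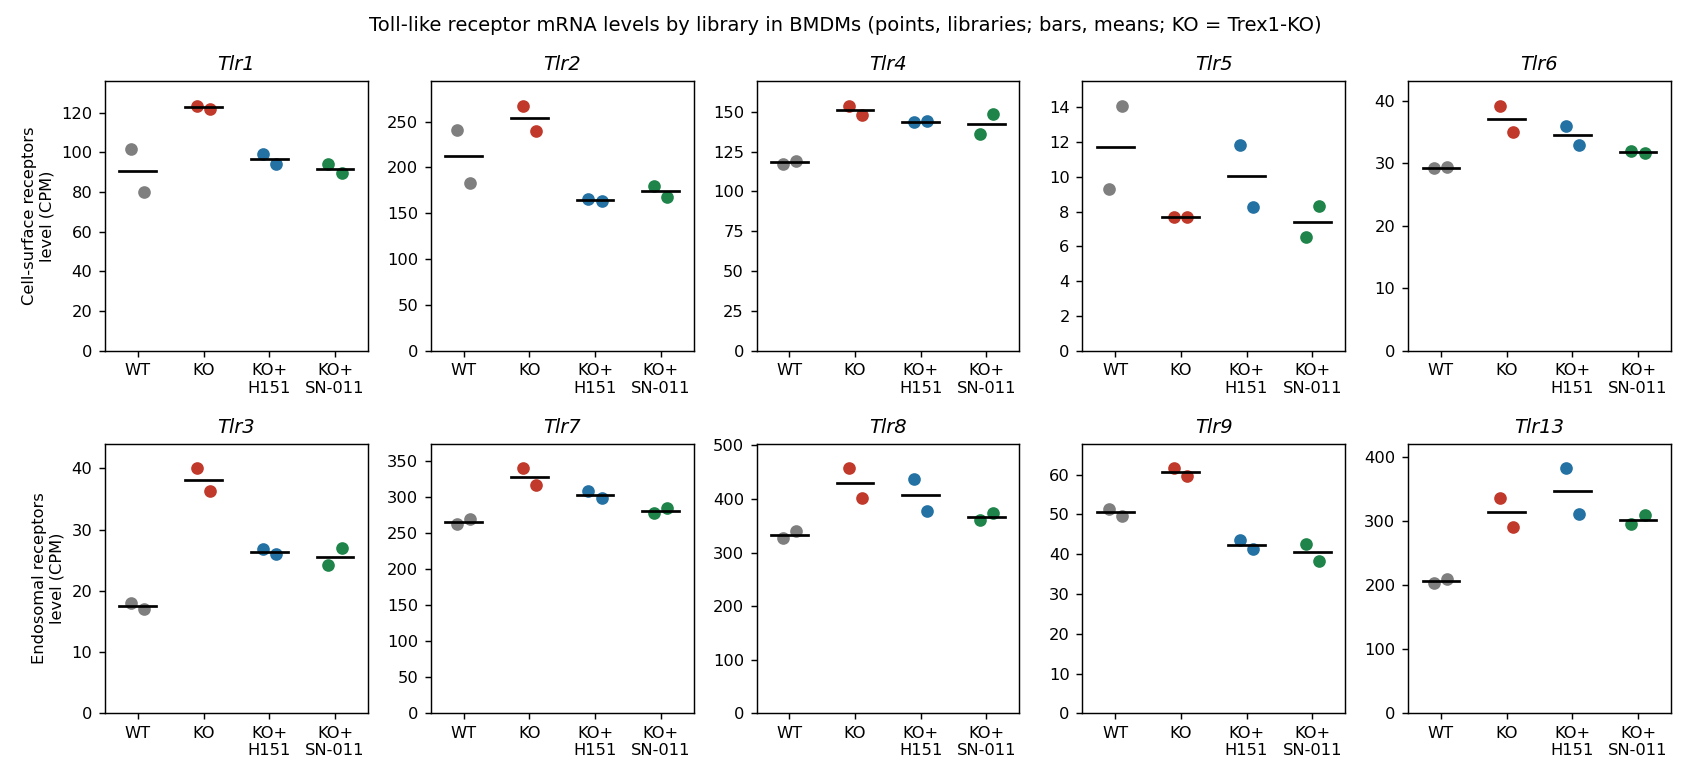
Level of each of the 10 receptor genes (CPM, axes from 0) in the 4 groups, with 1 point per library and a bar at the mean of the 2 libraries. The mean of Tlr3 is 17.5 CPM in WT cells, 38.1 CPM in Trex1-KO, and 26.4 and 25.5 CPM with H151 and SN-011, whereas that of Tlr13 is 302 CPM or more in each Trex1-/- group.

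Among the endosomal receptors, Tlr3, which encodes the sensor of double-stranded RNA, changed most. Its levels were 18.0 and 17.0 CPM in the WT pair of libraries, 40.0 and 36.2 CPM in the Trex1-KO pair, and 26.8 and 25.9 CPM with H151 and 24.1 and 26.9 CPM with SN-011. All 6 Trex1-/- libraries lay above both WT libraries, and all 4 antagonist libraries lay between WT and Trex1-KO. Of all tested genes 14.8% had the 6 Trex1-/- libraries above both WT libraries. Both H151 libraries lay below both Trex1-KO libraries for 17.9% of all tested genes, and both SN-011 libraries for 21.6%. The log2 fold change of Trex1-KO over WT was 1.12 ± 0.10 (SE, FDR = 3.94e-06). Tlr3 belongs to M7core, a list that the study chose partly on its change in these cells, so its direction is not independent evidence. Of the exonic bases of Tlr3, 7.32% overlap the gene Gm45542, and how reads there were counted is not stated.

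Tlr13, whose product senses bacterial ribosomal RNA, had 204 and 209.7 CPM in the WT pair and 336 and 290.2 CPM in the Trex1-KO pair. With H151 its levels were 382 and 311 CPM, and with SN-011 they were 295 and 309 CPM. All 6 Trex1-/- libraries lay above both WT libraries, and the antagonist libraries overlapped those of Trex1-KO. The log2 fold change of Trex1-KO over WT was 0.60 ± 0.09 (FDR = 3.72e-04).

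Tlr7 and Tlr8, neighbours on the X chromosome that encode receptors related to single-stranded RNA sensing, had smaller changes. Tlr7 had 262 and 269 CPM in WT cells, 340 and 316 CPM in Trex1-KO, 308 and 299 CPM with H151 and 277 and 285 CPM with SN-011. Tlr8 had 327 and 340 CPM in WT cells, 457 and 402 CPM in Trex1-KO, 438 and 377 CPM with H151 and 360.2 and 374 CPM with SN-011. For both genes every Trex1-/- library was above both WT libraries. The log2 fold changes of Trex1-KO over WT were 0.30 ± 0.06 for Tlr7 (FDR = 0.00213) and 0.36 ± 0.08 for Tlr8 (FDR = 0.00454). The call of Tlr8 was lost without WT replicate 1 or without Trex1-KO replicate 1, with FDR up to 0.0565.

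Tlr9, the CpG DNA receptor, had 51.5 and 49.7 CPM in WT cells, 61.6 and 59.5 CPM in Trex1-KO, 43.6 and 41.2 CPM with H151 and 42.5 and 38.3 CPM with SN-011. It was thus above WT in Trex1-KO and below WT in all 4 antagonist libraries. Separation from WT was common, in either direction. It held for 56.1% of all tested genes in Trex1-KO, 52.1% with H151 and 54.3% with SN-011. Its log2 fold change of Trex1-KO over WT was 0.26 ± 0.08 (FDR = 0.0393). This call was lost in 7 of 12 alternatives, among them the omission of each of the 4 libraries, DESeq2 and scaling to total counts, with FDR up to 0.209.

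At the cell surface, Tlr1, the partner of TLR2 for triacylated lipopeptides, had 101 and 80.0 CPM in WT cells, 124 and 122 CPM in Trex1-KO, 99.0 and 94.1 CPM with H151 and 93.8 and 89.5 CPM with SN-011. The Trex1-KO libraries stood above all others, and the antagonist libraries fell within the range of the WT pair. Of all tested genes 56.1% had the Trex1-KO and WT libraries apart, in either direction. The log2 fold change of Trex1-KO over WT was 0.44 ± 0.09 (FDR = 0.00387). Tlr6, the partner for diacylated lipopeptides, had 29.2 and 29.4 CPM in WT cells, 39.2 and 35.0 CPM in Trex1-KO, 36.0 and 33.0 CPM with H151 and 32.0 and 31.7 CPM with SN-011. It was 0.34 ± 0.09 higher on the log2 scale (FDR = 0.0245), a call lost in 5 of 12 alternatives (without WT replicate 1, WT replicate 2 or Trex1-KO replicate 1, with DESeq2 and with scaling to total counts), with FDR up to 0.199. Transcripts of Tlr1 and Tlr6 were 88.8% identical over 1328 bases and shared 139 windows of 150 bases, so reads from that stretch cannot be assigned with certainty. No other receptor shared such a window with another gene, in a search of its longest transcript on the sense strand. That search misses overlaps on the other strand or outside that transcript.

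Tlr4, the lipopolysaccharide receptor, had 117 and 119 CPM in WT cells, 154 and 148 CPM in Trex1-KO, 143 and 144 CPM with H151 and 136 and 149 CPM with SN-011. All 6 Trex1-/- libraries were above WT, and the log2 fold change of Trex1-KO over WT was 0.35 ± 0.06 (FDR = 0.00146). Tlr2 had 241 and 183 CPM in WT cells, 267 and 240.1 CPM in Trex1-KO, 166 and 163 CPM with H151 and 180.2 and 168 CPM with SN-011. The WT libraries of Tlr2 were far apart and overlapped those of Trex1-KO, and the log2 fold change of 0.26 ± 0.10 was not called (FDR = 0.106). Without WT replicate 1 the Tlr2 difference was called, with a log2 fold change of 0.47 (FDR = 0.00374).

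Tlr5, the flagellin receptor, was the one receptor with a lower mean in Trex1-KO. It had 9.27 and 14.1 CPM in WT cells, 7.70 and 7.72 CPM in Trex1-KO, 11.8 and 8.26 CPM with H151 and 6.52 and 8.32 CPM with SN-011, from 98 to 208 counts per library. Its log2 fold change of Trex1-KO over WT, -0.60 ± 0.22, was not called (FDR = 0.0889), while 4 of 12 alternatives called it.

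Of the receptors called higher, 3 (Tlr7, Tlr8 and Tlr13) lie on the X chromosome. Y-linked genes, looked up after the receptor values had been seen, differed between the genotypes. Ddx3y, Eif2s3y, Kdm5d and Uty together had 366 to 367 CPM in WT and 117 to 130.2 CPM in the 6 Trex1-/- libraries. Their log2 fold changes of Trex1-KO over WT were between -1.62 and -1.32, with 0 of the 4 called for either antagonist. Of 469 tested X-linked genes, 38 were called higher in Trex1-KO (8.10%) and 43 lower, with a median log2 fold change of 0.00. The X-linked partners of the 4 genes were not called, with log2 fold changes of -0.04 for Kdm6a, 0.12 for Ddx3x, -0.12 for Eif2s3x and 0.10 for Kdm5c (FDR from 0.161 to 0.848). The labels do not give the sex of the mice, and a difference of this kind between the groups cannot be told apart from the genotype.

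Tlr9 lies on chromosome 9 at 106222598 to 106226883 (GRCm38), 2.83 Mb from Trex1, so it was within the 5 Mb around the targeted locus. In that interval 13 of 132 tested genes were called higher and 17 lower, and on the rest of the chromosome 68 of 682 were called higher and 68 lower. Within 500 kb of Tlr9, 10 of 17 other tested genes were called lower (58.8%, against 7.11% of all tested genes) and 0 higher. The adjacent Alas1, the first enzyme of heme synthesis, fell by 0.45 on the log2 scale (FDR = 0.00300), Poc1a fell by 1.07 and Rpl29, a ribosomal protein gene, fell by 6.26. The part of the flanking DNA in the Tlr9 difference between genotypes was not tested. The antagonist comparisons were made within Trex1-/- cells, which share that DNA.

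**Figure D3:**
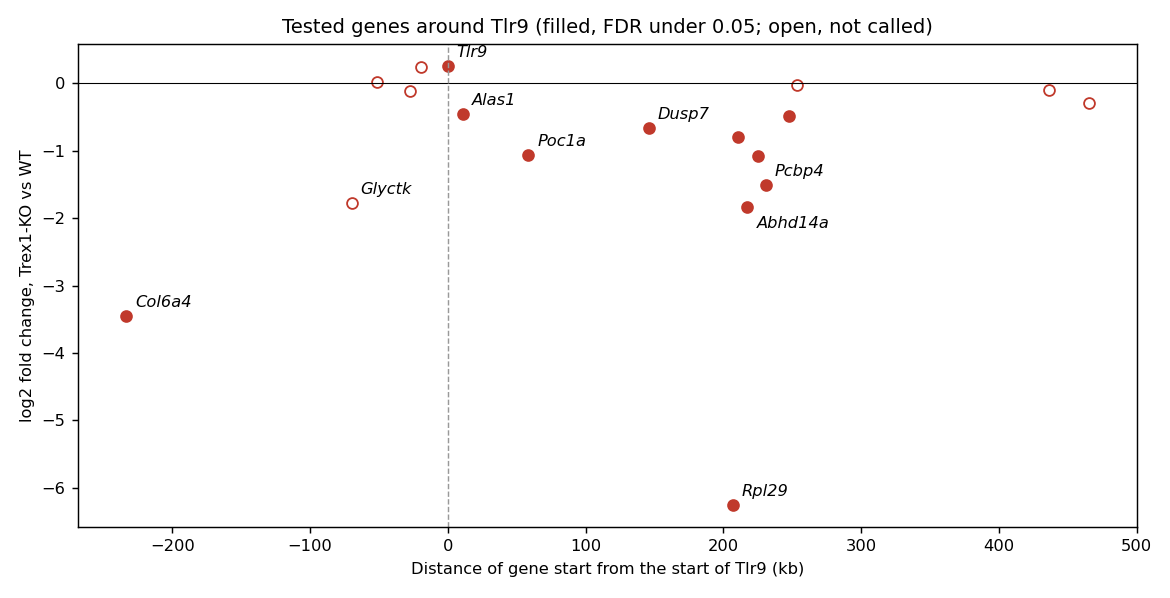
log2 fold change of Trex1-KO over WT for the tested genes within 500 kb of Tlr9, against the distance of each gene's start from that of Tlr9 (kb). Filled points passed FDR 0.05. Tlr9, at 0.26, is the only called gene above zero, and 10 of the 17 others are called lower, down to -6.26 for Rpl29.

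The second comparison asked which receptors respond to H151 in Trex1-/- cells. Of the 10, 3 (Tlr2, Tlr3 and Tlr9) were called lower than with vehicle and 0 were called higher, where 1.84% of all tested genes were called lower and 2.23% in either direction. Tlr2 fell to 0.648 of its vehicle level (log2 fold change -0.63 ± 0.10, FDR = 0.00318), Tlr9 to 0.699 (-0.52 ± 0.08, FDR = 0.00245) and Tlr3 to 0.692 (-0.53 ± 0.10, FDR = 0.00943). For each of these genes both H151 libraries lay below both vehicle libraries, as for 17.9% of all tested genes. The calls of Tlr2 and Tlr9 were made under all 12 alternatives, and that of Tlr3 was lost only without Trex1-KO replicate 1 (FDR = 0.0968). Tlr1 was 0.35 ± 0.09 lower on the log2 scale and missed the threshold (FDR = 0.0785). It was called in 5 of the 12 alternatives, each of which kept all libraries. The remaining 6 log2 fold changes ran from -0.11 for Tlr7 to 0.37 for Tlr5, with FDR of 0.605 or more.

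With SN-011, Tlr1, Tlr2, Tlr3 and Tlr9 were called lower than with vehicle and 0 receptors higher, where 2.22% of all tested genes were called lower and 2.33% in either direction. Tlr9 fell to 0.670 of its vehicle level (log2 fold change -0.58 ± 0.08, FDR = 9.42e-04), Tlr3 to 0.668 (-0.58 ± 0.10, FDR = 0.00480), Tlr2 to 0.686 (-0.54 ± 0.10, FDR = 0.00925) and Tlr1 to 0.748 (-0.42 ± 0.09, FDR = 0.0258). Both SN-011 libraries were below both vehicle libraries for each of the 4, as for 21.6% of all tested genes. The count rested on single libraries. It was 1 without Trex1-KO replicate 1, 1 without SN-011 replicate 1 and 2 without SN-011 replicate 2, and only Tlr9 was called under all 12 alternatives. Tlr7, Tlr8 and Tlr6 had log2 fold changes of -0.22 (FDR = 0.0719), -0.23 (FDR = 0.206) and -0.22 (FDR = 0.361). With a filter at 1 count Tlr7 (FDR = 0.0201) and Tlr8 (FDR = 0.00807) were also called lower, for a count of 6. Tlr4, Tlr5 and Tlr13 had log2 fold changes between -0.09 and -0.05, with FDR of 0.633 or more. Both antagonists were compared with the same vehicle libraries. The labels word the treatment of the SN-011 libraries differently from the rest, so a separate handling of them cannot be told apart from SN-011.

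**Figure D4:**
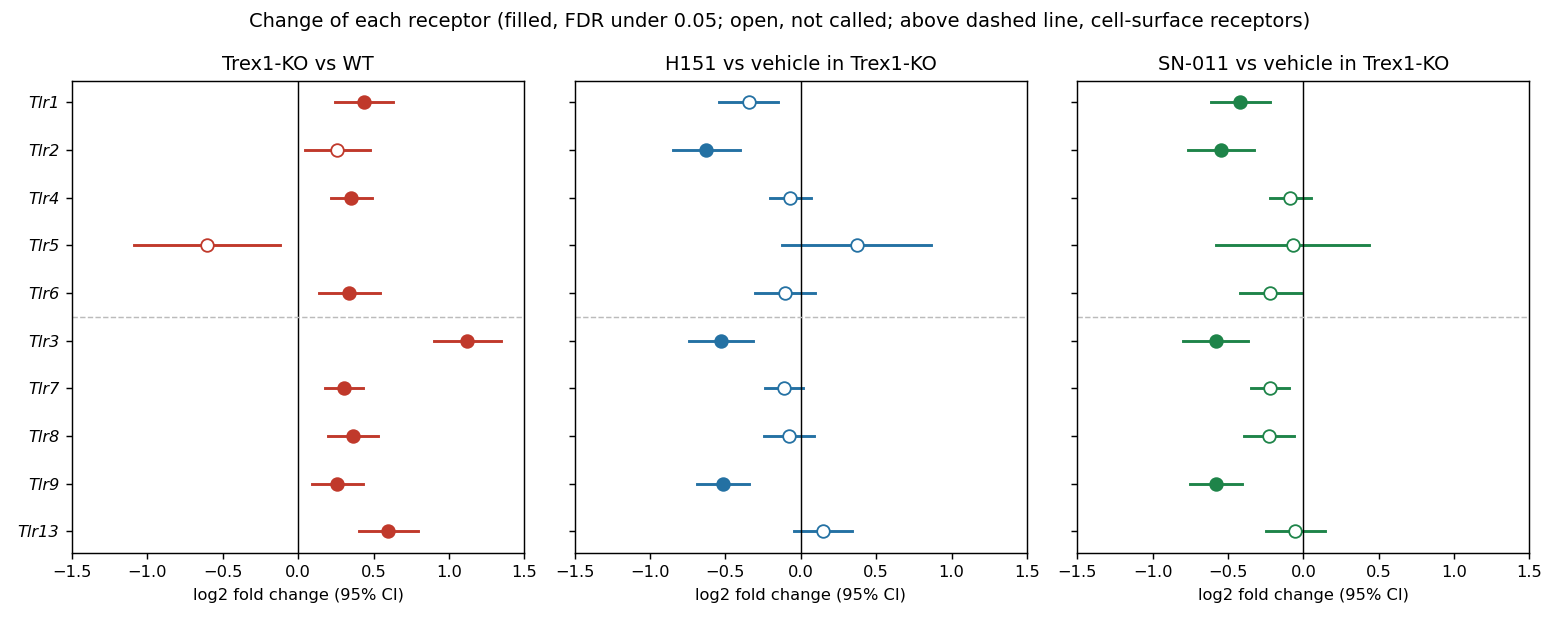
log2 fold change with 95% confidence interval for each receptor in Trex1-KO against WT and in H151 and SN-011 against vehicle. Cell-surface receptors are above the dashed line, and filled points passed FDR 0.05. Tlr2, Tlr3 and Tlr9 are filled to the left of zero for both antagonists, and Tlr4, Tlr6, Tlr7, Tlr8 and Tlr13 are filled, to the right of zero, only for the genotype.

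The antagonists were set against each other directly in 1 comparison of 10 receptors. None was called different between SN-011 and H151 by edgeR or DESeq2, 1 had an unadjusted p under 0.05, and 0.158% of all tested genes were called. The differences, SN-011 minus H151 on the log2 scale, had intervals of -0.14 to 0.30 for Tlr2, -0.27 to 0.17 for Tlr3, -0.24 to 0.12 for Tlr9 and -0.27 to 0.12 for Tlr1. The interval was narrowest for Tlr7 (-0.23 to 0.02) and widest for Tlr5 (-0.94 to 0.06). Tlr13 was lower with SN-011 at an unadjusted p of 0.0457 (log2 difference -0.20 ± 0.09, FDR = 0.557). Without H151 replicate 2 it was called, and the log2 difference moved to -0.34. The labels describe the treatment of the SN-011 libraries in another wording than that of the rest, and their sample numbers stand apart from the rest. A separate handling of them cannot be told apart from the compound, here or in the comparisons of SN-011 with vehicle and with WT.

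Against WT, the treated cells differed by receptor. With H151, 5 receptors were called higher than WT (6.79% of all tested genes) and Tlr2 was called lower (5.04% of all tested genes). Tlr13 had a log2 fold change over WT of 0.74 ± 0.09 (FDR = 9.84e-05), Tlr3 0.59 ± 0.11 (FDR = 0.00211), Tlr8 0.29 ± 0.08 (FDR = 0.0259), Tlr4 0.28 ± 0.06 (FDR = 0.00973) and Tlr7 0.19 ± 0.06 (FDR = 0.0473), and Tlr2 had -0.37 ± 0.10 (FDR = 0.0318). Of the 6 calls, 2 were made without WT replicate 1, 3 without WT replicate 2 and 3 without H151 replicate 1, and Tlr13 and Tlr3 were called each time. The call of Tlr7 was lost in 10 of 12 alternatives, among them DESeq2 (FDR = 0.101) and the exact test (FDR = 0.109), that of Tlr8 in 4, that of Tlr2 in 3 and that of Tlr4 in 2. With SN-011, 3 receptors were called higher than WT (6.18% of all tested genes) and Tlr9 was called lower (5.57% of all tested genes). The log2 fold changes over WT were 0.55 ± 0.09 for Tlr13 (FDR = 0.00117), 0.54 ± 0.11 for Tlr3 (FDR = 0.00395), 0.27 ± 0.06 for Tlr4 (FDR = 0.0132) and -0.32 ± 0.08 for Tlr9 (FDR = 0.0201). Without SN-011 replicate 2 only Tlr13 was called. The call of Tlr9 was lost in 4 of 12 alternatives (DESeq2, with FDR = 0.0551, and without WT replicate 1, WT replicate 2 or SN-011 replicate 2), and that of Tlr4 also in 4. Tlr2 (-0.28 ± 0.10, FDR = 0.0968) and Tlr5 (-0.68 ± 0.22, FDR = 0.0731) were not called, although 6 and 4 of 12 alternatives called them lower. DESeq2 called 0 receptors lower than WT with SN-011 and the exact test 3. With H151, Tlr9 had -0.26 ± 0.08 (FDR = 0.0604), and 3 of 12 alternatives called it.

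The partners of the receptors were described by lists, whose counts stand beside 9.27% of all tested genes called higher in Trex1-KO and 1.84% and 2.22% called lower with H151 and SN-011. Of 6 co-receptors and ligand-delivery proteins, 3 were called higher in Trex1-KO (median log2 fold change 0.41). With the antagonists edgeR's quasi-likelihood test called 0 of them, 3 had an unadjusted p under 0.05 with H151 and 2 with SN-011, and DESeq2 called 0 with H151 and 1 with SN-011. Cd180, a TLR4-like regulator of lipopolysaccharide responses, was 1.03 ± 0.09 higher on the log2 scale (FDR = 3.86e-06), its partner Ly86 0.26 ± 0.06 (FDR = 0.00751) and Cd36, a scavenger receptor that delivers lipids to TLR2, 0.55 ± 0.08 (FDR = 2.49e-04). Cd14 (0.15 ± 0.07, FDR = 0.165) and Ly96, which encodes MD-2 (0.12 ± 0.12, FDR = 0.586), were not called. The call of Ly86 was lost in 3 of 12 alternatives (FDR up to 0.0899).

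Of 11 genes for receptor folding, trafficking and endosomal processing, 5 were called higher in Trex1-KO (median 0.12), against 9.27% of all tested genes. Of these, 3 encode cathepsins, the proteases that cleave endosomal receptors, with Ctss 0.48 ± 0.06 higher on the log2 scale (FDR = 4.62e-05) and Ctsl 0.30 ± 0.06 (FDR = 0.00196). The others, Slc15a3 (0.45 ± 0.06, FDR = 1.55e-04) and Slc15a4 (0.32 ± 0.06, FDR = 0.00325), encode endolysosomal transporters. Unc93b1, which carries nucleic acid-sensing receptors to endosomes, had means of 1130.5 CPM for WT and 1226 CPM for Trex1-KO and was not called (0.12 ± 0.05, FDR = 0.190). With H151 only Ctsl was called, higher by 0.33 ± 0.06 on the log2 scale (FDR = 0.00373), and with SN-011 only Slc15a3, lower (-0.27 ± 0.06, FDR = 0.0321, a call lost in 5 of 12 alternatives), where 2.23% and 2.33% of all tested genes were called in either direction.

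Of 20 adaptors and proximal kinases, 3 were called higher in Trex1-KO (median 0.11), against 9.27% of all tested genes (16.4% in either direction). The 3 were higher on the log2 scale, Myd88 by 0.45 ± 0.08 (FDR = 0.00127), Ikbke, a kinase upstream of interferon regulatory factors, by 0.41 ± 0.07 (FDR = 8.48e-04) and Irak2 by 0.32 ± 0.07 (FDR = 0.00433). Ticam1 was not called (0.23 ± 0.11, FDR = 0.199). Ikbke was called lower with H151 (-0.40 ± 0.07, FDR = 0.00493) and with SN-011 (-0.46 ± 0.07, FDR = 0.00190), and Irak2 with SN-011 (-0.31 ± 0.07, FDR = 0.0293). The call of Irak2 with SN-011 was lost in 6 of 12 alternatives, DESeq2 and the omission of each library among them (FDR up to 0.259), and those of Ikbke in 1 of 12 each, without Trex1-KO replicate 1 for H151 and without SN-011 replicate 1 for SN-011. Myd88 had -0.17 ± 0.08 with H151 (FDR = 0.552) and -0.22 ± 0.08 with SN-011 (FDR = 0.227).

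Of 10 inhibitors of receptor signalling, 2 were called higher in Trex1-KO (median 0.25), against 9.27% of all tested genes. Pik3ap1, an adaptor to phosphoinositide 3-kinase, had a log2 fold change of 0.70 ± 0.07 (FDR = 4.22e-06) and Tnip1, a partner of the ubiquitin-editing enzyme A20, 0.36 ± 0.09 (FDR = 0.0101). With H151 edgeR's quasi-likelihood test called 0, 4 had an unadjusted p under 0.05, and DESeq2 called 1, lower. With SN-011, Pik3ap1 (-0.40 ± 0.06, FDR = 0.00305), Tnip1 (-0.49 ± 0.09, FDR = 0.00622) and Tnfaip3, which encodes A20 (-0.64 ± 0.13, FDR = 0.0166), were called lower. Without SN-011 replicate 1 none of these 3 was called, and Tnip1 and Tnfaip3 were also lost without SN-011 replicate 2 or Trex1-KO replicate 1 (FDR up to 0.269). The call of Tnip1 in Trex1-KO was lost without WT replicate 2 or Trex1-KO replicate 1 (FDR up to 0.143).

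Of 12 early genes induced by receptor signalling, 10 could be tested and 4 were called higher in Trex1-KO (median 0.46), against 9.27% of all tested genes. The cytokine gene Tnf had 7.14 and 2.44 CPM in the WT pair and 18.5 and 16.2 CPM in the Trex1-KO pair (log2 fold change 1.87 ± 0.30, FDR = 5.75e-04). The WT libraries were far apart, and the log2 fold change of Tnf was 2.82 without WT replicate 1 and 1.28 without WT replicate 2, called in both cases. The chemokine gene Ccl4 had means of 11.8 CPM for WT and 25.2 CPM for Trex1-KO (1.09 ± 0.13, FDR = 3.17e-05). Nfkbia and Nfkbiz, which encode proteins that bind NF-κB, were also higher in Trex1-KO, and both were lower with H151 (list median -0.50). All 10 tested early genes had a negative log2 fold change with H151, 6 of them at an unadjusted p under 0.05. With SN-011 these counts were 9 and 7. With SN-011, Tnf (-1.54 ± 0.29, FDR = 0.00943), the chemokine gene Cxcl2 (-1.22 ± 0.21, FDR = 0.00579) and Nfkbia were called lower (list median -0.74). The call of Tnf with SN-011 was lost with DESeq2 and without Trex1-KO replicate 1, SN-011 replicate 1 or SN-011 replicate 2 (FDR up to 0.159), and that of Cxcl2 without either SN-011 library. DESeq2 called 3 of the early genes lower with H151 and 2 with SN-011, and the exact test 5 with each. Against WT, SN-011-treated cells had 2 early genes called higher (6.18% of all tested genes) and 1, Ptgs2, lower (5.57%). DESeq2 called 1 higher and 2 lower there. Ptgs2 was called in no other comparison. In contrast, all 12 interferon-response reference genes, such as Irf7 and Ifit3, were called higher in Trex1-KO (median 2.19) and lower with H151 (median -1.34) and SN-011 (median -1.06), where DESeq2 called 11 with SN-011 and Irf7 was not called without SN-011 replicate 1 (FDR = 0.0840). The largest receptor change, that of Tlr3, was smaller than the smallest in this reference list (1.12 against 1.56 on the log2 scale). Genes of the reference list, Ifit3 among them, and Myd88 also belong to M7core, so their direction is not independent evidence either.

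**Figure D5:**
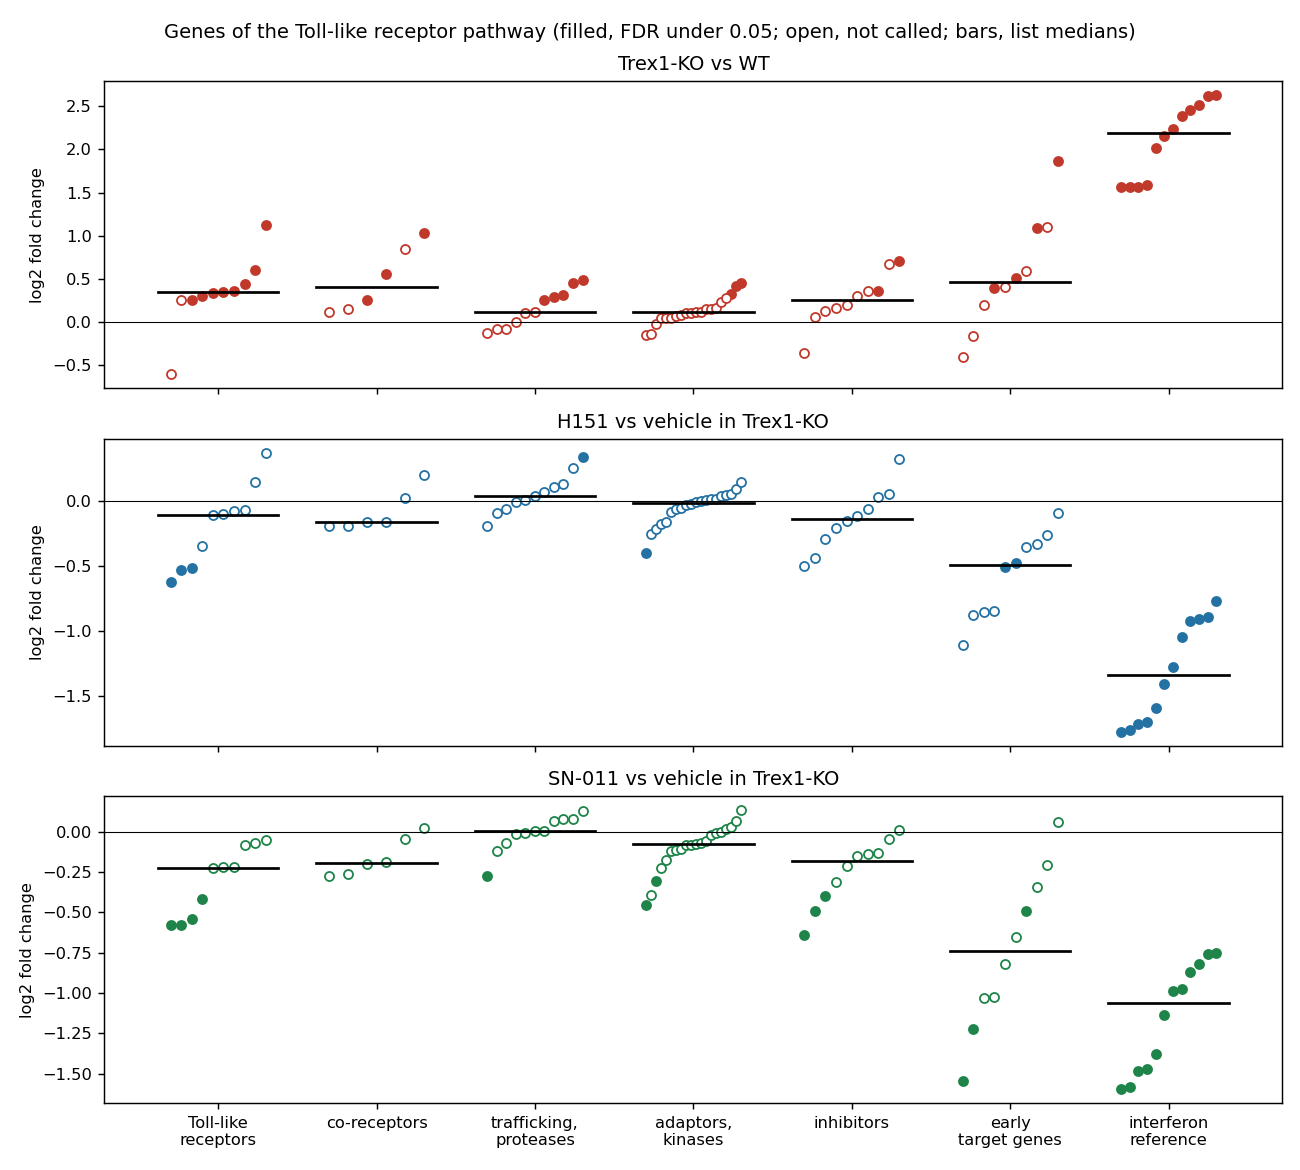
log2 fold change of each tested gene in 7 lists of the Toll-like receptor pathway, in Trex1-KO against WT and in each antagonist against vehicle (vertical scales differ between panels). Filled points passed FDR 0.05 and bars are list medians. Receptor medians are 0.34, -0.11 and -0.22 from top to bottom. The interferon reference genes lie farther from zero than any receptor in each panel, and the early target genes overlap them.

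The genes most like each receptor called in Trex1-KO (Tlr2 and Tlr5 were not called) were found over the 8 libraries, as a description that rests on 4 group levels. Of 10714 genes compared, the most like Tlr3 were Samd9l (Pearson r = 0.996 on log2 CPM), Zbp1, which encodes a sensor of Z-form nucleic acids (0.995), and Oas2, an interferon-induced synthetase (0.995). Zbp1, like Tlr3, belongs to M7core. The most like Tlr9 were Adgre4 (0.976), Rnd3 (0.968) and Nfkb1, which encodes an NF-κB subunit (0.951). Tlr1 was most like Aoah, which encodes an enzyme that inactivates lipopolysaccharide (0.977), Tlr4 most like Shtn1 (0.991), Tlr7 most like Nab1 (0.990) and Tlr13 most like Ncoa3 (0.988). The most like Tlr8 was Ampd3 (0.993), and the most like Tlr6 was Tlr8 (0.980). Synj1 was among the top 3 for both Tlr6 (0.976) and Tlr7 (0.984).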

How the data were processed

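Raw counts per gene, deposited by the authors with no normalization, were read for 54532 Ensembl genes in 8 libraries. The methods name Trimmomatic, hisat2 and featureCounts, whereas the submitters' processing notes name HISAT2, HTSeq and mm10. Versions, annotation and strand setting are not given in the sources used here. Polyadenylated RNA was sequenced. Symbols and positions came from GENCODE M21 (GRCm38), which held 54495 of the identifiers.

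Genes were filtered with filterByExpr (minimum count 10, minimum total 15), leaving 14591. All 8 libraries entered 1 edgeR 4.0.16 quasi-likelihood fit (R 4.3.3) with TMM factors and 1 mean per group. Two-sided tests were adjusted over all tested genes (Benjamini-Hochberg) and called at FDR 0.05. SE was taken as the size of the log2 fold change divided by the root of its F statistic. The steps were tested on simulated data. DESeq2 1.42.0, edgeR's exact test, other scalings and filters, a replicate block and omission of each library were tried. Members and lists were chosen with earlier results of these data known. Named were the receptors, up to 4 called genes per list by size of change, and Unc93b1, Myd88, Ticam1, Cd14 and Ly96. Most-like genes were the top 3 by Pearson r among genes averaging 2 or more log2 CPM. Nfkbia, Nfkbiz, Alas1, Poc1a, Rpl29, Atrip, Zbtb46, the Y-linked genes and their X-linked partners were named after their values were seen. No library was left out. Counting error alone is covered by the depth of 11845470 to 17284863 counts.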

Additional observations from a re-analysis of the deposited data

How the results depend on the processing

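Of 720 log2 fold changes of the receptors recomputed under 16 settings, 631 stayed on their side of the threshold with the same sign or a shift of less than 1 SE, 52 lost the call, 28 gained it, 9 uncalled values changed sign by more than 1 SE and 0 called values changed sign. With 2 libraries per group, calls near the threshold rest on single libraries.

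The number of receptor genes called ran, when each library was left out in turn, from 5 to 7 for Trex1-KO against WT, 2 to 3 for H151 against vehicle, 1 to 3 for SN-011 against vehicle, 0 to 1 for SN-011 against H151, 2 to 4 for H151-treated cells against WT and 1 to 4 for SN-011-treated cells against WT. The number of all genes called ran likewise from 1588 to 1939, 222 to 348, 121 to 293, 2 to 270, 986 to 1738 and 906 to 1164, against 2390, 325, 340, 23, 1726 and 1714 with all libraries. For H151 against vehicle, a filter at 1 count gave 525 genes. For SN-011 against vehicle, the exact test gave 574 and the filter at 1 count 679. For SN-011 against H151, DESeq2 gave 38, the exact test 70, the filter at 1 count 266 and the replicate block 44. The cause was not tested.

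The replicate numbers were not taken as pairs, since deviations of same-numbered libraries correlated at -0.02 to 0.19. The replicate block gave 9, 4, 4, 0, 7 and 5 receptor genes and added Tlr2 (FDR = 0.0238) in Trex1-KO against WT, Tlr1 (FDR = 0.0189) with H151 and, against WT, Tlr9 lower with H151 (FDR = 0.0432) and Tlr2 lower with SN-011 (FDR = 0.0244). Scaling to total counts moved the median of all genes in Trex1-KO against WT to -0.09, and Tlr6 (FDR = 0.0901) and Tlr9 (FDR = 0.164) were then not called, while Tlr5 was called lower (log2 fold change -0.69, FDR = 0.0486).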
